A study of Arabidopsis thaliana with 12 samples.

Results

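The transcriptome of the brm-1 brd1,2,13 mutant of Arabidopsis thaliana, called the combined mutant here, was compared with that of the wild type (WT). The combined mutant carries the brm-1 mutation of BRM together with the mutations of BRD1, BRD2 and BRD13 that are also present in the brd1,2,13 mutant. Young whole seedlings of the CoL-0 ecotype were collected at 14 days of age under long days, in 12 RNA sequencing libraries: 3 of the combined mutant, 3 of brm-1, 3 of brd1,2,13 and 3 of WT. All 4 genotypes shared ecotype, age and day length, and the labels name no treatment. Libraries of each genotype carry the numbers 1 to 3 in the labels, with no word on whether they stem from separate plantings. A whole seedling mixes all organs, so fewer cells of a type and less RNA per cell cannot be told apart in any value below. The members of the comparison were the gene records with the status OK for the pair of the combined mutant and WT in the deposited table, 19184 of 31837 records.

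Levels are given in FPKM, fragments per kilobase of transcript scaled to library size, of which the authors deposited 1 value per genotype, made from its 3 libraries. Values of the single libraries were not analysed here, so no difference below has a replicate check, no error or test can be given, and the depth of the libraries is unknown. The difference between genotypes is given as the log2 of (FPKM + 1) in the mutant over (FPKM + 1) in WT, a scale that understates the change of genes with low levels. A record was counted as higher or lower where this difference was at least 2-fold. Both terms describe these values and not a test.

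BRM is the ATPase of a class of SWI/SNF complexes, which use the energy of ATP to slide or evict nucleosomes and so open or close DNA to transcription factors. BRD1, BRD2 and BRD13 are bromodomain proteins, which bind acetylated lysines of histones, and they are subunits of the BRM-containing complexes. In Arabidopsis, loss of BRM is known for small plants with curled leaves, altered flowering time and altered hormone responses. The combined mutant addresses what the joint loss of BRM and of the 3 BRD proteins does to transcript levels, and brm-1 and brd1,2,13 give the levels with each loss alone.

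The 4 mutated genes were examined first. BRM (AT2G46020, TAIR10 chromosome 2, 18922528 to 18934088) had 0.12 FPKM in the combined mutant, 0.0954 in brm-1 and 18.5 in brd1,2,13, against 17.5 in WT. BRD13 (AT5G55040, TAIR10 chromosome 5, 22327173 to 22331840) had 0.0194 FPKM in the combined mutant, 18.7 in brm-1 and 0.223 in brd1,2,13, against 14.45 in WT. Transcripts of both genes were thus close to 0 in the genotypes that carry their mutations. BRD1 had 4.76 FPKM in the combined mutant, 15.7 in brm-1 and 4.36 in brd1,2,13, against 12.65 in WT. BRD2 had 3.08 FPKM in the combined mutant, 22.5 in brm-1 and 3.05 in brd1,2,13, against 7.04 in WT. Reads of BRD1 and BRD2 remained in the combined mutant at levels like those in brd1,2,13, and the higher BRD2 level of brm-1 was not seen there. A different gene record overlaps the BRM locus and may hold some of its reads.

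Of the 19184 records, 1009 were higher in the combined mutant than in WT and 784 were lower. These counts, 5.26% and 4.09% of the records, are the background for every gene group below. In brm-1, 4.41% of 19154 records were higher and 3.39% were lower than in WT. In brd1,2,13, 1.78% of 19048 records were higher and 0.541% were lower. These 3 comparisons share the WT values. Most records lay close to WT, with 14687 records (76.6%) within 1.5-fold. The combined mutant had the highest level of the 4 genotypes in 30.5% of the records and the lowest in 28.5%. The plot of the combined mutant against WT shows differences in both directions over most of the range of levels.

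**Figure D1:**
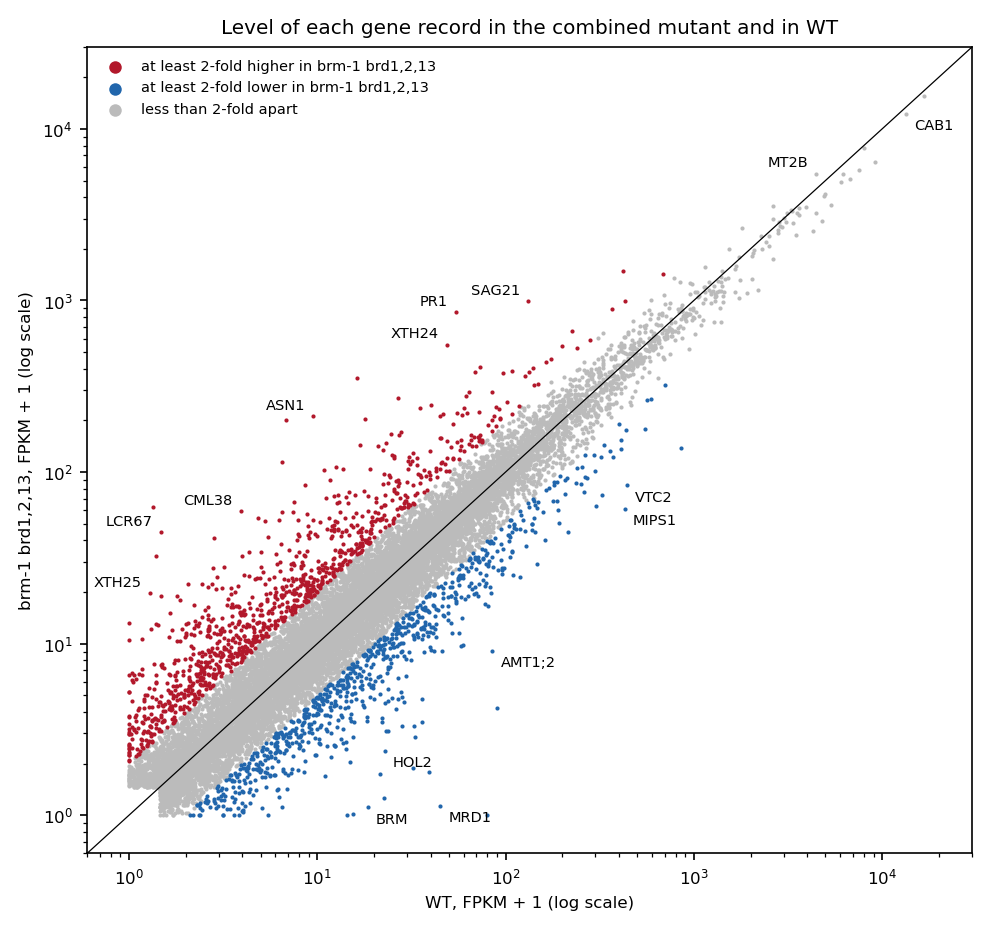
FPKM + 1 of each of the 19184 gene records in the combined mutant (vertical axis) against WT (horizontal axis), both on log scales. Each point is 1 record, red where it was at least 2-fold higher in the combined mutant (1009), blue where it was at least 2-fold lower (784), and the line marks equal levels.

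The 1009 higher records made up 4.99% of the summed FPKM of the combined mutant, 4.32% of that of brm-1 and 2.2% of that of brd1,2,13, compared with 1.52% of that of WT. The 784 lower records made up 1.26% of the sum in the combined mutant, 1.46% in brm-1 and 2.9% in brd1,2,13, compared with 3.53% in WT. These sets were chosen by the difference between the combined mutant and WT, so the shares in these genotypes follow from that choice. The shares in brm-1 and brd1,2,13 are set against the same WT values, so they are not free of it either. Differences of at least 2-fold were fewest among records with a mean below 1 FPKM (1.97% higher and 1.08% lower), where the added 1 FPKM shrinks every difference. Among records with a mean of 1 to 5 FPKM, 6.98% were higher and 5.05% lower. Above 100 FPKM the shares were 4.2% and 2.9%.

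The marker genes of organs were read in the same way. Of 10 shoot and leaf markers, 9 were below WT, and their levels summed to 34719 FPKM in the combined mutant and 40949 FPKM in WT. Of 11 root markers, 8 were below WT, with sums of 67.6 FPKM in the combined mutant, 78.2 in brm-1 and 76.2 in brd1,2,13, against 109.5 in WT. Of 8 floral organ markers, 4 were above and 4 below WT, and 5 had less than 1 FPKM in the combined mutant. Their levels summed to 26.3 FPKM in the combined mutant and 5.37 in WT, mostly from SEP3 (20.6 FPKM in the combined mutant, 2.82 in WT). PI, a floral homeotic gene, was also higher, with 3.56 FPKM in the combined mutant, 2.78 in brm-1 and 1.36 in brd1,2,13, against 0.636 in WT. The floral genes AP1 and AP3, which lacked the status OK, stayed below 1 FPKM in all 4 genotypes. Seed markers (0.437 FPKM in sum in the combined mutant, 0.115 in WT) and pollen markers (0 in the combined mutant, 0.0441 in WT) were at or near 0.

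Genes furthest above WT included those of a defensin, the defence protein PR1, cell wall enzymes and proteins of nitrogen metabolism and calcium signalling. LCR67, a plant defensin (AT1G75830, TAIR10 chromosome 1, 28472357 to 28472891), had 43.65 FPKM in the combined mutant, 53.6 in brm-1 and 3.67 in brd1,2,13, against 0.481 in WT. It was the named gene with the largest difference in the combined mutant, at 4.91 on the log2 scale. Defensins and LCR peptides as a list were split, with 2 (22.2%) higher and 2 (22.2%) lower of 9 measured. Among the lower was PDF2.5, with 38.6 FPKM in the combined mutant, 54.7 in brm-1 and 34.4 in brd1,2,13, against 82.7 in WT. ASN1, a glutamine-dependent asparagine synthetase known to be induced in the dark (AT3G47340, TAIR10 chromosome 3, 17437884 to 17441243), had 211 FPKM in the combined mutant, 169 in brm-1 and 24.4 in brd1,2,13, against 8.54 in WT. PR1, the pathogenesis-related protein used as a marker of salicylic acid responses (AT2G14610, TAIR10 chromosome 2, 6241704 to 6242463), had 854 FPKM in the combined mutant, 293 in brm-1 and 177 in brd1,2,13, against 53.8 in WT. PR1 differs from LCR67 in the order of the genotypes, since its level in the combined mutant exceeded that in brm-1, whereas LCR67 was somewhat lower in the combined mutant than in brm-1. CML38, a calmodulin-like calcium sensor, had 58.3 FPKM in the combined mutant, 48.3 in brm-1 and 4.25 in brd1,2,13, against 2.93 in WT.

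Cell wall enzymes and transporters followed. XTH25, which cuts and rejoins xyloglucan chains, had 18.7 FPKM in the combined mutant, 13.1 in brm-1 and 1.40 in brd1,2,13, against 0.291 in WT. XTH24 had 551.5 FPKM in the combined mutant, 406 in brm-1 and 220.4 in brd1,2,13, against 47.8 in WT. A second record on the XTH24 locus held only 10.2 FPKM in the combined mutant and 1.23 in WT, and the split between these records is uncertain. NRT1.8, a nitrate transporter that unloads the xylem, had 11.9 FPKM in the combined mutant and 0.433 FPKM in WT. NATA1, an acetyltransferase that makes acetylornithine, had 12.0 FPKM in the combined mutant and 0.395 FPKM in WT, and AIG1, a GTP-binding protein first found through its induction by avirulent bacteria, had 83.4 FPKM in the combined mutant and 7.57 FPKM in WT. All 5 of these genes had intermediate levels in brd1,2,13, below the combined mutant and above WT.

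LTP3 and LEA7 did not follow this order. LTP3, a lipid transfer protein, had 51.0 FPKM in the combined mutant, 73.4 in brm-1 and 87.3 in brd1,2,13, against 4.28 in WT. LEA7, a late embryogenesis abundant protein, had 14.1 FPKM in the combined mutant, 45.4 in brm-1 and 99.97 in brd1,2,13, against 0.658 in WT. For both genes the combined mutant was above WT but the lowest of the 3 mutants. LTP3 has a near-identical neighbour, LTP4, and the LEA7 locus overlaps another record, so both values are uncertain.

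**Figure D2:**
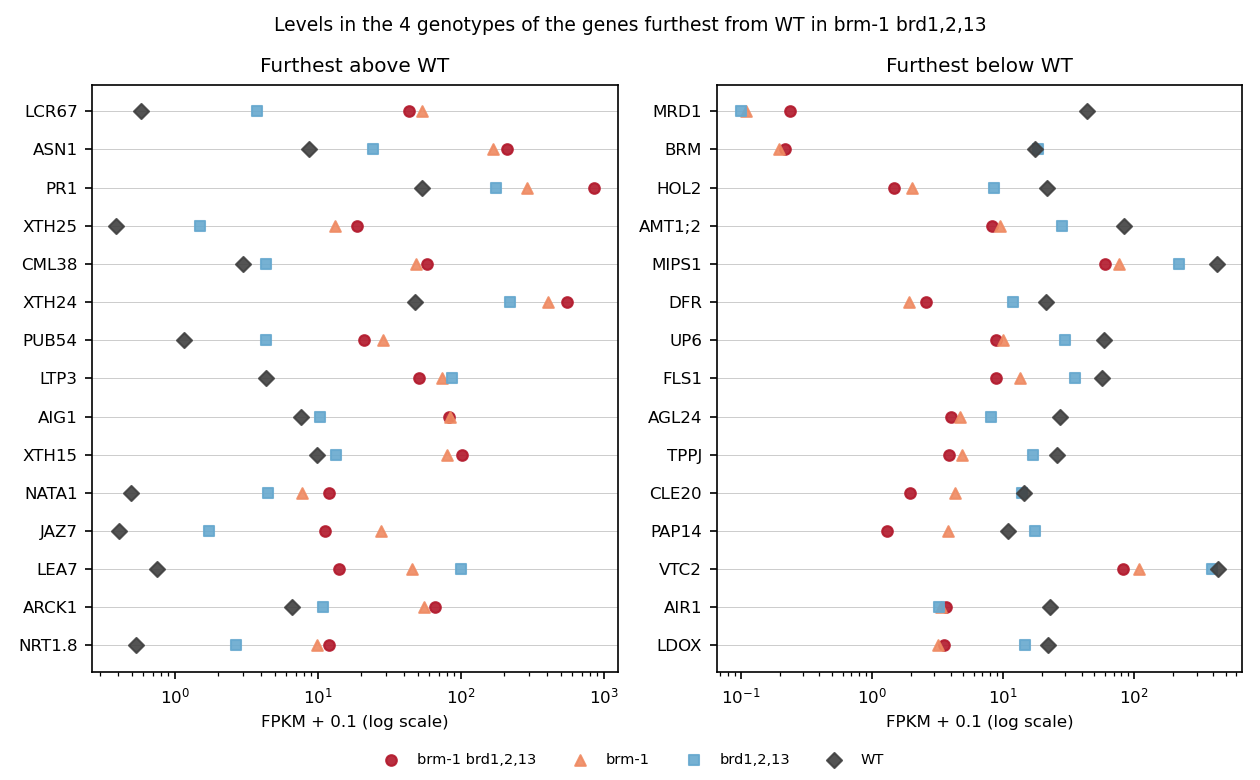
Levels (FPKM + 0.1, log scale) in the combined mutant, brm-1, brd1,2,13 and WT of the 15 genes furthest above WT (left) and the 15 furthest below WT (right) in the combined mutant, each genotype with its own symbol. For most genes the symbols of the combined mutant and brm-1 lie side by side, while brd1,2,13 lies between them and WT, and LEA7, LTP3, BRM, MRD1, AIR1 and PAP14 depart from this order.

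Genes furthest below WT included an ammonium transporter and enzymes of inositol, ascorbate and flavonoid synthesis. MRD1 (AT1G53480, TAIR10 chromosome 1, 19963022 to 19969757) had 0.14 FPKM in the combined mutant and 0.00948 in brm-1, was listed at 0 in brd1,2,13, and had 44.0 in WT. Its transcripts were thus near 0 in all 3 mutants and not in the combined mutant alone. The record of the neighbouring gene HEI10, on the same locus, had 1.065 FPKM in the combined mutant, 1.28 in brm-1 and 1.365 in brd1,2,13, against 5.18 in WT, and the reads of this pair cannot be assigned with certainty. AMT1;2, an ammonium transporter (AT1G64780, TAIR10 chromosome 1, 24060770 to 24062630), had 8.12 FPKM in the combined mutant, 9.44 in brm-1 and 28.4 in brd1,2,13, against 84.0 in WT. MIPS1, which makes inositol phosphate from glucose 6-phosphate (AT4G39800, TAIR10 chromosome 4, 18469348 to 18472077), had 60.3 FPKM in the combined mutant, 77.5 in brm-1 and 219 in brd1,2,13, against 428 in WT. VTC2, an enzyme of ascorbate synthesis, had 82.9 FPKM in the combined mutant, 109.8 in brm-1 and 393.5 in brd1,2,13, against 438 in WT. AMT1;2 was already lower in brd1,2,13 and MIPS1 fell just short of 2-fold there (-0.96 on the log2 scale), while VTC2 lay close to WT.

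Other genes of this end of the list were HOL2, a methyltransferase (1.38 FPKM in the combined mutant, 21.8 in WT), and the flavonoid enzymes DFR (2.48 FPKM in the combined mutant, 21.2 in WT), FLS1 (8.74 FPKM in the combined mutant, 57.3 in WT) and LDOX (3.485 FPKM in the combined mutant, 21.96 in WT). AGL24, a MADS-box factor that promotes flowering, had 3.92 FPKM in the combined mutant, 4.61 in brm-1 and 8.07 in brd1,2,13, against 27.35 in WT. TPPJ, a trehalose 6-phosphate phosphatase, had 3.79 FPKM in the combined mutant and 25.9 FPKM in WT, and CLE20, a small signalling peptide, had 1.87 FPKM in the combined mutant and 14.45 FPKM in WT. AIR1 stood apart from these genes, with 3.61 FPKM in the combined mutant, 3.27 in brm-1 and 3.15 in brd1,2,13, against 22.75 in WT, so that all 3 mutants had about the same low level.

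In absolute FPKM, the largest gains were those of abundant transcripts. MT2B, a metallothionein, gained most, with 5480 FPKM in the combined mutant and 4460 FPKM in WT, a log2 difference of only 0.30. SAG21, a late embryogenesis abundant protein known from senescing leaves, had 987 FPKM in the combined mutant, 732 in brm-1 and 236 in brd1,2,13, against 131 in WT. DELTA-TIP, a tonoplast aquaporin, had 988 FPKM in the combined mutant and 432 FPKM in WT. The largest losses were those of light-harvesting and carbon fixation genes. LHB1B2, an antenna protein of photosystem II, had 6441 FPKM in the combined mutant and 9171 FPKM in WT, and RCA, the Rubisco activase, had 5090 FPKM in the combined mutant and 6718 FPKM in WT. LHB1B1 differed in the other direction, with 1431 FPKM in the combined mutant and 687 FPKM in WT. LHB1B1 and LHB1B2 are close copies of each other, as are CAB1, CAB2 and CAB3, so the division of reads among them is uncertain. The list of photosystem and antenna genes does not hold LHB1B1. Over its 33 measured records the median log2 difference was -0.16, with 0 lower and 1 higher, PSBP-2, at 8.17 FPKM in the combined mutant and 3.02 FPKM in WT and at a locus that overlaps another record.

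Gene lists were described by how many measured members were at least 2-fold from WT and by their median, beside the background of 5.26% and 4.09% and a median of 0.01 over all records. Lists and members were chosen with earlier results of these data known, so their shares are a description and not an independent comparison. The plot of list medians places core hypoxia, dark-induced, JAZ and receptor kinase genes above WT and SAUR, BBX and phosphate starvation genes below it.

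**Figure D3:**
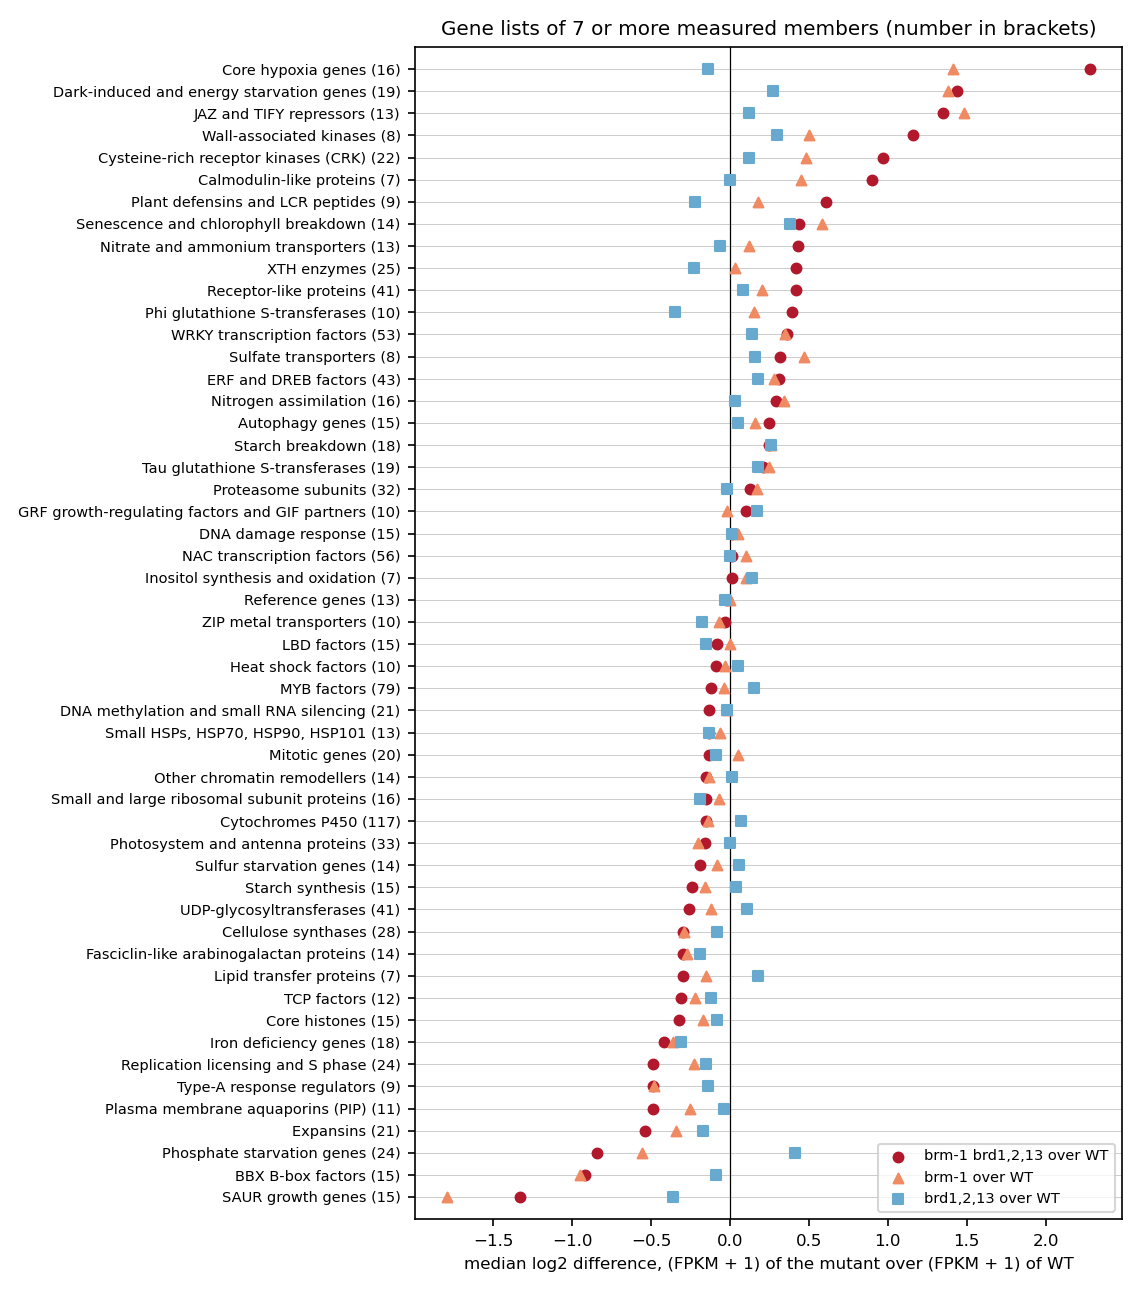
Median log2 difference from WT of gene lists with 7 or more measured members, for the combined mutant (circles), brm-1 (triangles) and brd1,2,13 (squares), with the number of measured members in brackets. The core hypoxia list lies furthest right for the combined mutant (2.28) and the SAUR list furthest left (-1.33), and for phosphate starvation genes brd1,2,13 lies to the right of 0 (0.41) while the other mutants lie to the left.

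Core hypoxia genes are induced when oxygen runs short and shift metabolism to fermentation. Of 18 listed genes 16 were measured, and 11 of these (68.8%) were higher in the combined mutant and 0 lower. The median log2 difference was 2.28 in the combined mutant, 1.41 in brm-1 and -0.14 in brd1,2,13. All 16 measured genes had their highest level in the combined mutant, against 30.5% of all records. ADH1, the alcohol dehydrogenase of ethanol fermentation, had 143 FPKM in the combined mutant, 93.25 in brm-1 and 14.3 in brd1,2,13, against 15.9 in WT. PDC1, the pyruvate decarboxylase before it in the pathway, had 52.85 FPKM in the combined mutant, 26.9 in brm-1 and 3.26 in brd1,2,13, against 3.83 in WT. Both loci overlap other records, which was not so for the next 4 genes. HB1, a haemoglobin that scavenges nitric oxide, had 123 FPKM in the combined mutant, 63.15 in brm-1 and 12.9 in brd1,2,13, against 24.7 in WT. PCO1 and PCO2, oxidases through which plant cells sense oxygen, were both higher in the combined mutant. PCO1 had 37.1 FPKM in the combined mutant and 5.41 FPKM in WT, and PCO2 had 17.3 FPKM in the combined mutant and 2.38 FPKM in WT. SUS4, a sucrose synthase, had 23.2 FPKM in the combined mutant, 12.2 in brm-1 and 4.23 in brd1,2,13, against 3.965 in WT. For HB1 and SUS4 the level in the combined mutant was well above that in brm-1, whereas brd1,2,13 was near or below WT.

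Dark-induced and energy starvation genes had medians above WT in both mutants that lack BRM. Of 21 listed genes 19 were measured, 11 of them (57.9%) were higher in the combined mutant and 0 were lower. The median was 1.44 in the combined mutant, 1.38 in brm-1 and 0.27 in brd1,2,13. Beside ASN1, the list held SEN1, a dark-inducible senescence gene, with 245 FPKM in the combined mutant, 219 in brm-1 and 47.4 in brd1,2,13, against 39.1 in WT. DIN10, of the raffinose synthase family, had 294 FPKM in the combined mutant, 301 in brm-1 and 54.7 in brd1,2,13, against 84.0 in WT. BXL1, a beta-xylosidase, had 219.7 FPKM in the combined mutant, 225.5 in brm-1 and 46.1 in brd1,2,13, against 61.7 in WT. BCAT-2, which breaks down branched-chain amino acids, had 14.8 FPKM in the combined mutant and 1.53 FPKM in WT. The loci of DIN10 and BCAT-2 overlap other records. In SEN1, DIN10 and BXL1 the combined mutant and brm-1 were close to each other.

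Nitrogen genes overlapped with this group. Of 16 measured genes of nitrogen assimilation, 4 (25%) were higher and 0 lower, and ASN1 is counted in both lists. GDH1 and GDH2, glutamate dehydrogenases that release ammonium from glutamate, were both higher in the combined mutant. GDH1 had 121 FPKM in the combined mutant and 24.6 FPKM in WT, and GDH2 had 389 FPKM in the combined mutant and 108 FPKM in WT. NIA1, a nitrate reductase, had 157 FPKM in the combined mutant, 183 in brm-1 and 68.5 in brd1,2,13, against 44.2 in WT, while NIA2, the other nitrate reductase, had 453 FPKM in the combined mutant and 379 FPKM in WT. Among 13 measured nitrate and ammonium transporters, NRT1.8 and NRT1.5 (103 FPKM in the combined mutant, 43.9 in WT) were higher, and AMT1;2 and NRT1.9 (5.175 FPKM in the combined mutant, 12.2 in WT) were lower. The loci of GDH1 and of the 3 NRT1 genes named here overlap other records.

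**Figure D4:**
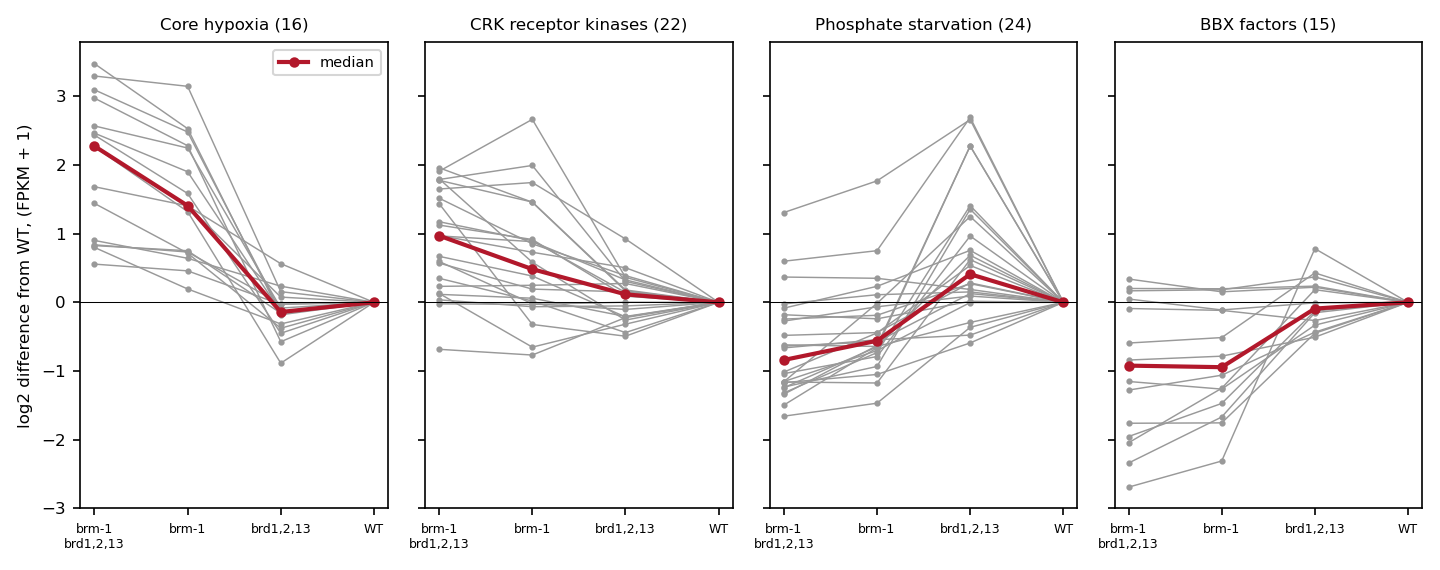
Log2 difference from WT, on the FPKM + 1 scale, of each measured member (grey lines) and their median (red line) in the combined mutant, brm-1, brd1,2,13 and WT, for core hypoxia genes, CRK receptor kinases, phosphate starvation genes and BBX factors. The medians in the combined mutant are 2.28, 0.97, -0.84 and -0.92, and all 16 hypoxia genes are highest in the combined mutant.

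Receptor genes of the cell surface were higher in part and held 0 lower members in the 3 lists described here. Of 22 measured cysteine-rich receptor kinases (CRK), which span the membrane and take part in pathogen and redox responses, 10 (45.5%) were higher and 0 lower, and 16 (against 30.5% of all records) had their highest level in the combined mutant. Their median was 0.97 in the combined mutant, 0.48 in brm-1 and 0.12 in brd1,2,13. CRK6 had 12.4 FPKM in the combined mutant, 4.78 in brm-1 and 2.225 in brd1,2,13, against 2.86 in WT. CRK4 had 7.39 FPKM in the combined mutant, 1.475 in brm-1 and 1.20 in brd1,2,13, against 2.095 in WT, and only in the combined mutant was it above WT. CRK13 went against this order, with 5.57 FPKM in the combined mutant, 10.1 in brm-1 and 1.25 in brd1,2,13, against 0.748 in WT.

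Of 8 measured wall-associated kinases, which bind pectin, 5 (62.5%) were higher and 0 lower, with medians of 1.16 in the combined mutant, 0.50 in brm-1 and 0.30 in brd1,2,13. WAK1 had 72.1 FPKM in the combined mutant, 47.2 in brm-1 and 25.5 in brd1,2,13, against 28.2 in WT. WAK3 had 8.66 FPKM in the combined mutant, 5.90 in brm-1 and 2.61 in brd1,2,13, against 1.13 in WT. The WAK genes lie side by side as close copies and the WAK1 and WAK2 loci overlap other records, so their values are uncertain. Receptor-like proteins, which lack a kinase domain, were measured for 41 genes, of which 10 (24.4%) were higher and 0 lower. Against 30.5% of all records, 31 of these 41 genes had their highest level in the combined mutant. Their median was 0.42 in the combined mutant, 0.20 in brm-1 and 0.08 in brd1,2,13. RLP23, the receptor of a peptide from microbial NLP proteins, had 11.3 FPKM in the combined mutant, 4.22 in brm-1 and 1.74 in brd1,2,13, against 1.655 in WT. RLP38, whose locus overlaps no other record, had 5.59 FPKM in the combined mutant, 2.97 in brm-1 and 0.872 in brd1,2,13, against 0.937 in WT.

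Of 6 listed pathogenesis-related proteins only 4 were measured, and 3 of these (75%) were higher, against 5.26% of all records. HCHIB was less than 2-fold above WT, with 62.0 FPKM in the combined mutant and 45.3 FPKM in WT. BGL2, the secreted beta-1,3-glucanase also known as PR2, had 126 FPKM in the combined mutant, 30.9 in brm-1 and 19.35 in brd1,2,13, against 23.9 in WT. Of the 3 higher genes it was the only 1 in which brm-1 differed from WT by less than 1.5-fold on this scale. CHI, a chitinase, had 148 FPKM in the combined mutant, 93.4 in brm-1 and 68.3 in brd1,2,13, against 22.3 in WT. Among 53 measured WRKY factors, the plant transcription factors that bind the W box, 9 (17%) were higher and 0 lower. WRKY18 led this family with 88.5 FPKM in the combined mutant, 79.3 in brm-1 and 12.2 in brd1,2,13, against 10.7 in WT, and it did not share the gap between the combined mutant and brm-1 seen for PR1 and BGL2.

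Motifs were searched on both strands in the 250 bases before the RefSeq start (TAIR10.1) of 16495 genes. The W box core, TTGAC, was present in 53.9% of the 883 promoters of higher genes, 45% of the 727 promoters of lower genes and 45.5% of all promoters. The ABRE core, ACGTG, which abscisic acid response factors bind, was present in 31.5% of the promoters of higher genes, 24.6% of those of lower genes and 24.2% of all. The CGCG box, CGCG, which calmodulin-binding transcription activators recognise, was present in 13.8% of the promoters of higher genes, 7.7% of those of lower genes and 10.6% of all promoters. Site II, TGGGCC, common in genes of growing cells, was present in 7.81% of the promoters of higher genes and 7.84% of those of lower genes, against 16.1% of all. The W box core overlaps in its letters with the as-1 core, TGACG, and the ABRE core lies inside the G box, CACGTG, so these motifs are not counted independently. A match describes letters in the sequence and not a bound site.

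**Figure D5:**
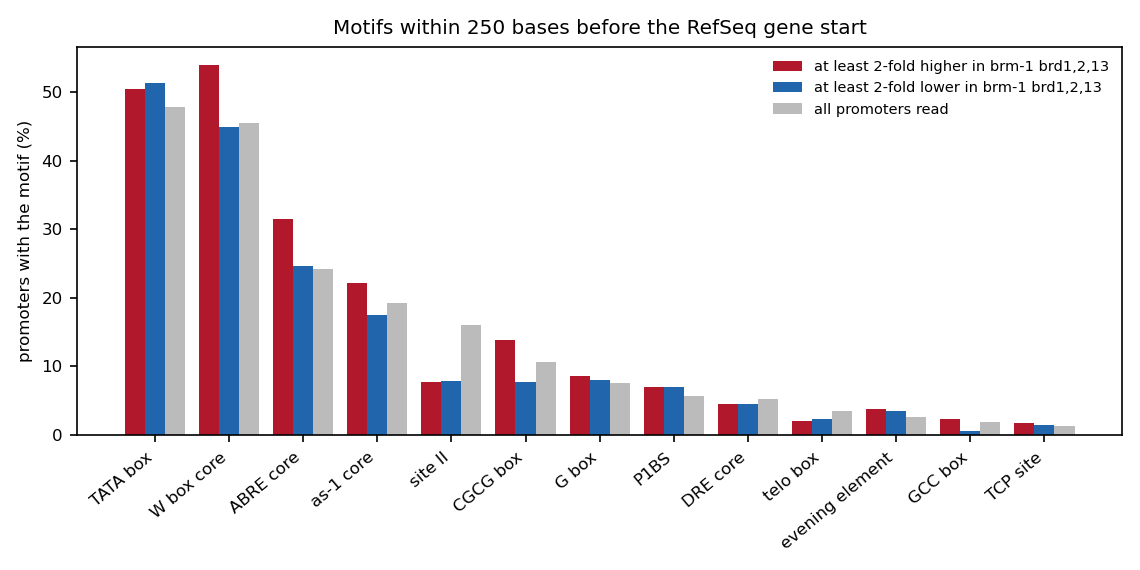
Share of promoters (250 bases before the RefSeq start) that hold each of 13 motifs on either strand, in %, for genes at least 2-fold higher in the combined mutant (red), at least 2-fold lower (blue) and all 16495 promoters (grey). The W box core, ABRE core and CGCG box bars are tallest for higher genes. So are those of the as-1 core, G box, GCC box, evening element and TCP site. The site II bars of both changed sets are less tall than the grey bar (16.1%).

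JAZ proteins repress jasmonate responses, and their own genes are induced by jasmonate through MYC factors, which bind the G box. All 13 listed genes were measured, 8 of them (61.5%) were higher and 0 lower, with medians of 1.35 in the combined mutant, 1.48 in brm-1 and 0.12 in brd1,2,13. JAZ7 had 11.1 FPKM in the combined mutant, 27.6 in brm-1 and 1.64 in brd1,2,13, against 0.31 in WT. JAZ8 had 4.96 FPKM in the combined mutant, 6.34 in brm-1 and 0.565 in brd1,2,13, against 0.0549 in WT. JAZ10 had 33.3 FPKM in the combined mutant, 39.95 in brm-1 and 3.72 in brd1,2,13, against 3.35 in WT. In contrast to the hypoxia genes, only 1 of the 13 had its highest level in the combined mutant. JAZ3 had 25.2 FPKM in the combined mutant and 9.24 FPKM in WT and TIFY10B (JAZ2) 50.7 FPKM in the combined mutant and 19.2 FPKM in WT, while JAZ11 (12.6 FPKM in the combined mutant, 12.5 in WT) was level with WT and JAZ4 had 0.866 FPKM in the combined mutant, 2.41 in WT.

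A G box was present in 4 of the 13 JAZ promoters (30.8%), against 7.57% of all promoters. All 4 of these genes were among the 8 higher members, which were chosen by their levels. The promoters are shown with the G box in capitals, for JAZ7 at chr2:14572780-14573029 (plus strand), JAZ8 at chr1:10596102-10596351 (plus strand), JAZ3 at chr3:6119457-6119706 (plus strand) and TIFY10B at chr1:28150447-28150696 (minus strand) of TAIR10.1. The ASN1 promoter, at chr3:17441432-17441681 (minus strand), is added because it leads the dark-induced list and also holds a G box.
JAZ7: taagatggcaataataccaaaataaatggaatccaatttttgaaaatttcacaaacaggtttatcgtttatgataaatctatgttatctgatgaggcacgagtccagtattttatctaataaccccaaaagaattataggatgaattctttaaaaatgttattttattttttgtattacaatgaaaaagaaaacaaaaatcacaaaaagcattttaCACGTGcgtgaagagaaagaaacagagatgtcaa
JAZ8: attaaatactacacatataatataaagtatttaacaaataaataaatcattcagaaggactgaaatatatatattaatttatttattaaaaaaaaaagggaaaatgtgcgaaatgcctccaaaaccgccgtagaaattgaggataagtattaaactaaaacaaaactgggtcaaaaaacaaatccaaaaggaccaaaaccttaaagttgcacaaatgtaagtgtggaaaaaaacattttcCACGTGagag
JAZ3: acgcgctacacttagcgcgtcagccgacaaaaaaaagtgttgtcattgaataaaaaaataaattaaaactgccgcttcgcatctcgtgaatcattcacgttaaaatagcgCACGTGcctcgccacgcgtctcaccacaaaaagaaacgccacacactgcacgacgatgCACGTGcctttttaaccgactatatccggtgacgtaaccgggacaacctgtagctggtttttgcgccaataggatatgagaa
TIFY10B: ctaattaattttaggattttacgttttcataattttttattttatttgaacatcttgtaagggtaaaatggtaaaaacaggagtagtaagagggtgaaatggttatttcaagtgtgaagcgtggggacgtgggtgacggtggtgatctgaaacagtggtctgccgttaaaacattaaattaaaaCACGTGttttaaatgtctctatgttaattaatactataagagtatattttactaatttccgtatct
ASN1: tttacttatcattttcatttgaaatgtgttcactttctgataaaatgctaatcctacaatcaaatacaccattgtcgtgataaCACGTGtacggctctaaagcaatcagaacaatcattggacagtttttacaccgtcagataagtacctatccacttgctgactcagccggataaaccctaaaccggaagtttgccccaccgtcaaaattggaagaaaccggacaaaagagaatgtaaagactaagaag
The G box begins 34 bases before the start in JAZ7 and 10 bases before it in JAZ8, while JAZ3 holds a pair of G boxes.

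The median of phosphate starvation genes lay on opposite sides of WT in the combined mutant and in brd1,2,13. Many of the listed genes, under the factor PHR1, act when phosphate is scarce, through uptake, through enzymes that free phosphate, and through lipids that replace phospholipids. Of 30 listed genes 24 were measured, 12 of them (50%) were lower in the combined mutant and 1 was higher, and 18 had their lowest level there, against 28.5% of all records. The median was -0.84 in the combined mutant, -0.56 in brm-1 and 0.41 in brd1,2,13. PEPC1, a phosphatase, had 9.145 FPKM in the combined mutant, 17.1 in brm-1 and 138 in brd1,2,13, against 27.65 in WT. PS2, a related phosphatase, had 11.6 FPKM in the combined mutant, 19.6 in brm-1 and 154 in brd1,2,13, against 30.9 in WT. AT4, a non-coding RNA that binds the microRNA of this pathway, had 46.4 FPKM in the combined mutant, 57.4 in brm-1 and 285 in brd1,2,13, against 111 in WT. All 3 genes were thus above WT in brd1,2,13 and below WT in both mutants that lack BRM.

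MGD2 and MGDC, which make galactolipids, were both lower in the combined mutant. MGD2 had 5.40 FPKM in the combined mutant and 13.3 FPKM in WT, and MGDC had 5.665 FPKM in the combined mutant and 15.6 FPKM in WT. SPX1, a phosphate sensor that holds PHR1 back, had 58.0 FPKM in the combined mutant, 86.6 in brm-1 and 172 in brd1,2,13, against 118 in WT. SQD1, a sulfolipid enzyme, had 63.6 FPKM in the combined mutant, 87.25 in brm-1 and 142 in brd1,2,13, against 143 in WT, and in contrast to SPX1 it was not above WT in brd1,2,13. PHO2 marks phosphate exporters for breakdown and so does not act by the routes given above. It had 26.5 FPKM in the combined mutant, 28.9 in brm-1 and 40.1 in brd1,2,13, against 61.0 in WT. The loci of MGD2, SRG3 and PHO2 overlap other records. RNS1, a ribonuclease that is also induced by wounding, was the exception, with 12.7 FPKM in the combined mutant, 17.9 in brm-1 and 34.1 in brd1,2,13, against 4.54 in WT. The phosphate starvation RNA IPS1 and the acid phosphatase gene PAP14 were at least 2-fold below each of the 3 other genotypes. IPS1 had 15.05 FPKM in the combined mutant, 34.45 in brm-1 and 84.2 in brd1,2,13, against 34.8 in WT, and PAP14, which is not in the list, had 1.20 FPKM in the combined mutant, 3.69 in brm-1 and 17.4 in brd1,2,13, against 10.8 in WT.

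PHR1 binds a motif named P1BS (GNATATNC, searched on both strands, with N for any base). It was present in 5 of the 24 promoters of the phosphate starvation list (20.8%), against 5.63% of all promoters. Among all lower genes the share was 7.02%, and among all higher genes it was also 7.02%. The 12 lower members of the list were chosen by their levels and held all 5 (41.7%), namely PS2, SRG3, AT4, MGD2 and PHT1;2. The promoters of 4 of them are shown with P1BS in capitals, for PS2 at chr1:27466349-27466598 (minus strand), SRG3 at chr3:350011-350260 (minus strand), AT4 at chr5:894332-894581 (plus strand) and MGD2 at chr5:6896213-6896462 (plus strand) of TAIR10.1.
PS2: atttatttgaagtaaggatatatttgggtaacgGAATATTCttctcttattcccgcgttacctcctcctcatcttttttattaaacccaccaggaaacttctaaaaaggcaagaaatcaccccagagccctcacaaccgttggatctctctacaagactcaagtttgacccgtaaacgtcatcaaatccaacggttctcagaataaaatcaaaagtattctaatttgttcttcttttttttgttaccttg
SRG3: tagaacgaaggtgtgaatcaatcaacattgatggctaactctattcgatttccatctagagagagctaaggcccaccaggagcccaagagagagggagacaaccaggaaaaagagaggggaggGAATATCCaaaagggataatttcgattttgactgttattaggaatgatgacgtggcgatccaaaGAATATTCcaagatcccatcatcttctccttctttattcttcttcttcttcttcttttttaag
AT4: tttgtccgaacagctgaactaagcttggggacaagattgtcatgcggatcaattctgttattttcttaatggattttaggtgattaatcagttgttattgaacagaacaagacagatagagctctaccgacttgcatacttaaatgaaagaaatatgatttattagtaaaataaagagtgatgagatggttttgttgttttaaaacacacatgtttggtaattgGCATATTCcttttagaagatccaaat
MGD2: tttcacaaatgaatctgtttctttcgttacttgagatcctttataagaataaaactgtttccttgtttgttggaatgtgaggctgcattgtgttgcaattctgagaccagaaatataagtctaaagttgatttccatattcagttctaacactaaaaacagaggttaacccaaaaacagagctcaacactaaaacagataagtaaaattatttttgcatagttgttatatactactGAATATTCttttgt
SRG3, a glycerophosphodiester phosphodiesterase that holds P1BS at a pair of places, had 32.9 FPKM in the combined mutant, 50.1 in brm-1 and 128 in brd1,2,13, against 79.2 in WT. PHT1;2, a phosphate transporter of root cells that is nearly identical to PHT1;1, had 0.374 FPKM in the combined mutant and 3.34 FPKM in WT. The root markers given above summed to 67.6 FPKM in the combined mutant and 109.5 FPKM in WT, and their part in the lower levels of root-expressed phosphate and iron genes was not tested.

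Iron deficiency genes were also lower in part. Of 21 listed genes 18 were measured, 8 (44.4%) were lower and 1 was higher, with medians of -0.42 in the combined mutant, -0.36 in brm-1 and -0.31 in brd1,2,13. IRT1, the main iron transporter of the root epidermis, had 1.52 FPKM in the combined mutant, 1.20 in brm-1 and 1.42 in brd1,2,13, against 10.25 in WT. NAS4, a nicotianamine synthase, had 4.08 FPKM in the combined mutant, 5.09 in brm-1 and 14.3 in brd1,2,13, against 20.6 in WT. Genes of the bHLH factors of iron deficiency were near 0 in the mutants that lack BRM: BHLH100 was listed at 0 in the combined mutant and in brm-1, with 1.32 FPKM in brd1,2,13 and 4.485 in WT, and bHLH38 had 0.0439 FPKM in the combined mutant, 0.0224 in brm-1 and 0.911 in brd1,2,13, against 3.02 in WT. FRU (FIT), the factor above IRT1 in the root pathway, had 6.11 FPKM in the combined mutant and 3.03 FPKM in WT and so did not share their direction. NAS2 was the 1 higher member, with 5.23 FPKM in the combined mutant, 3.31 in brm-1 and 2.19 in brd1,2,13, against 0.0941 in WT.

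B-box (BBX) factors take part in light responses. Of 20 listed genes 15 were measured, 7 (46.7%) were lower and 0 higher, with medians of -0.92 in the combined mutant, -0.95 in brm-1 and -0.09 in brd1,2,13. BBX30 and BBX31, the short microproteins of this family, were both lower in the combined mutant. BBX30 had 0.6905 FPKM in the combined mutant and 9.94 FPKM in WT, and BBX31 had 1.63 FPKM in the combined mutant and 9.22 FPKM in WT. BBX18 had 8.04 FPKM in the combined mutant, 13.4 in brm-1 and 40.3 in brd1,2,13, against 44.8 in WT. BBX32 had 1.08 FPKM in the combined mutant, 2.61 in brm-1 and 8.76 in brd1,2,13, against 7.59 in WT. BBX16 had 25.7 FPKM in the combined mutant, 25.8 in brm-1 and 65.4 in brd1,2,13, against 89.7 in WT. BBX21, which promotes light-dependent development, differed little, with 56.6 FPKM in the combined mutant and 44.5 FPKM in WT.

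Growth genes of the cell wall differed in both directions. SAUR genes are short auxin-induced genes that promote cell expansion. The list took 16 of them by symbol, so it may not hold the whole family. Of 15 measured, 10 (66.7%) were lower and 0 higher, with medians of -1.33 in the combined mutant, -1.79 in brm-1 and -0.36 in brd1,2,13. SAUR63 had 19.1 FPKM in the combined mutant, 12.4 in brm-1 and 33.4 in brd1,2,13, against 53.0 in WT. SAUR20 had 10.6 FPKM in the combined mutant, 6.87 in brm-1 and 26.05 in brd1,2,13, against 33.1 in WT. No measured SAUR gene of the list had its lowest level in the combined mutant. SAUR19 to SAUR24 are close copies of each other, so their single values are uncertain. Of 21 measured expansins, which loosen the wall, 5 (23.8%) were lower, among them EXPA15 (8.56 FPKM in the combined mutant, 38.6 in WT) and EXPB3 (26.05 FPKM in the combined mutant, 94.6 in WT), and 1, EXPA16, was higher (5.96 FPKM in the combined mutant, 1.47 in WT).

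The XTH family was split. Of 25 measured genes 8 (32%) were higher, among them XTH25, XTH24, XTH15 (at an overlapped locus) and XTH33, and 4 (16%) were lower. XTH33 had 33.4 FPKM in the combined mutant, 14.2 in brm-1 and 1.78 in brd1,2,13, against 4.03 in WT. XTH31 had 62.4 FPKM in the combined mutant, 70.6 in brm-1 and 169 in brd1,2,13, against 301 in WT. XTH17 had 7.19 FPKM in the combined mutant, 5.71 in brm-1 and 13.1 in brd1,2,13, against 28.7 in WT. XTH17 and XTH18 are close relatives that differed in opposite directions, since XTH18 had 88.3 FPKM in the combined mutant, 59.7 in brm-1 and 19.3 in brd1,2,13, against 25.15 in WT.

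Few of the measured starch genes were at least 2-fold from WT. GBSS1, the granule-bound synthase that makes amylose, was the only 1 of 15 measured starch synthesis genes (6.67%) that was at least 2-fold lower. This share is near the 4.09% of all records. GBSS1 had 43.5 FPKM in the combined mutant, 54.65 in brm-1 and 136.5 in brd1,2,13, against 213 in WT. Of 18 measured starch breakdown genes 2 (11.1%) were higher and 2 (11.1%) lower, against 5.26% and 4.09% of all records. The lower ones were the beta-amylase family genes CT-BMY (BAM3), with 45.2 FPKM in the combined mutant, 61.8 in brm-1 and 92.2 in brd1,2,13, against 138 in WT, and BMY3 (48.9 FPKM in the combined mutant, 110.2 in WT). Both beta-amylase loci overlap other records. In inositol metabolism, MIPS1 and MIPS2 (29.6 FPKM in the combined mutant, 93.6 in WT, at an overlapped locus), which make inositol, were lower, and the oxygenases MIOX2 and MIOX4, which break it down, were higher. MIOX2 had 76.5 FPKM in the combined mutant and 16.7 FPKM in WT, and MIOX4 had 5.70 FPKM in the combined mutant and 0.134 FPKM in WT.

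Water channel genes did not share a direction. Of 11 measured plasma membrane aquaporins 8 were below WT and 8 had their lowest level in the combined mutant, against 28.5% of all records. Only PIP2;4, with 4.61 FPKM in the combined mutant, 5.57 in brm-1 and 11.9 in brd1,2,13, against 18.3 in WT, was at least 2-fold lower. PIP2A, an abundant member, had 973 FPKM in the combined mutant, 1191 in brm-1 and 1449 in brd1,2,13, against 1428 in WT, while PIP3 was above WT, with 519 FPKM in the combined mutant, 528 in brm-1 and 404 in brd1,2,13, against 351 in WT. Of the 3 measured genes in the list of tonoplast aquaporins, TIP2;3 (8.06 FPKM in the combined mutant, 17.7 in WT) and TIP4;1 (4.78 FPKM in the combined mutant, 10.95 in WT) were lower. DELTA-TIP, described above among the largest gains, was higher and is not in that list.

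Most lists of cell cycle and housekeeping genes held no member past 2-fold. Among 24 measured genes of replication licensing and S phase, 0 were higher and 0 lower. Yet 20 of these genes had their lowest level in the combined mutant, against 28.5% of all records. The median of the 24 was -0.49 in the combined mutant, -0.23 in brm-1 and -0.15 in brd1,2,13. MCM6, a subunit of the replicative helicase, had 4.08 FPKM in the combined mutant, 5.26 in brm-1 and 6.36 in brd1,2,13, against 8.27 in WT. TSO2, a ribonucleotide reductase subunit, had 33.1 FPKM in the combined mutant, 42.85 in brm-1 and 62.15 in brd1,2,13, against 59.1 in WT. Site II was present in 15 of these 24 promoters (62.5%), against 16.1% of all. Mitotic genes (20 measured, median -0.13), proteasome subunits (32, median 0.13), small RNA and DNA methylation genes (21, median -0.13) and other chromatin remodellers (14, median -0.15) also held 0 higher and 0 lower members. In the DNA damage response SMR7 was the 1 lower (6.67%) of 15 measured genes (1.81 FPKM in the combined mutant, 5.58 in WT), near the 4.09% of all records. Among 13 measured heat shock proteins 2 (15.4%) were higher and 1 (7.69%) was lower. The higher ones were the small proteins HSP17.4 (6.72 FPKM in the combined mutant, 0.738 in WT, at an overlapped locus) and HSP17.6A (6.63 FPKM in the combined mutant, 1.89 in WT), and the lower one was HSP70 (18.0 FPKM in the combined mutant, 38.2 in WT). The 13 reference genes had a median of -0.02 and ranged between -0.58 and 0.35.

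Of 22 measured microRNA precursor records, 0 were higher and 2 (9.09%) lower. MIR398b, whose microRNA acts on copper superoxide dismutase transcripts, had 6.175 FPKM in the combined mutant, 5.32 in brm-1 and 14.3 in brd1,2,13, against 15.9 in WT. MIR156a, which keeps plants juvenile, had 0.184 FPKM in the combined mutant, 0.144 in brm-1 and 0.787 in brd1,2,13, against 1.40 in WT, a level close to the 1 FPKM added to each value.

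In 24 records the combined mutant was at least 2-fold above each of the 3 other genotypes. These were singled out by that order, so their values are a description. Of the 24, 11 had a symbol, namely BGL2, PR1, BG3, CRK4, CRK6, RLP41, RLP23, PDF1.2c, NIP2;1, XTH33 and ATH9. Most of these 11 are genes of defence, but no share of such genes over all records was taken. BG3, a beta-1,3-glucanase gene next to BGL2, had 7.78 FPKM in the combined mutant, 1.88 in brm-1 and 1.74 in brd1,2,13, against 2.12 in WT. PDF1.2c, a plant defensin, had 10.3 FPKM in the combined mutant, 3.51 in brm-1 and 0.66 in brd1,2,13, against 1.94 in WT. NIP2;1, an aquaporin-like channel that carries lactic acid, had 9.71 FPKM in the combined mutant, 3.49 in brm-1 and 0.0959 in brd1,2,13, against 0.17 in WT, at a locus that overlaps another record. Of the records without a symbol, AT5G10040 was listed at 0 in brd1,2,13 and WT, with 9.56 FPKM in the combined mutant and 3.46 in brm-1. AT4G39675 had 114 FPKM in the combined mutant, 54.3 in brm-1 and 31.8 in brd1,2,13, against 29.2 in WT. The loci of RLP41, RLP23, ATH9, AT5G10040 and AT4G39675 also overlap other records, so their values are uncertain.

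In 4 records the combined mutant was at least 2-fold below each of the 3 others: IPS1, PAP14, AT3G14910 and AT1G53542. AT1G53542 was listed at 0 in the combined mutant, with 6.09 FPKM in brm-1, 71.9 in brd1,2,13 and 78.95 in WT. AT3G14910 was also listed at 0 in the combined mutant, against 1.66 FPKM in brm-1, 2.14 in brd1,2,13 and 2.63 in WT, at a locus that overlaps another record. Over all records, 14 were listed at 0 in the combined mutant alone of this pair and 36 in WT alone. A record without a symbol also had the largest difference above WT of the whole comparison (5.55 on the log2 scale), AT4G10265 with 62.0 FPKM in the combined mutant, 43.6 in brm-1 and 1.84 in brd1,2,13, against 0.349 in WT. AT1G21525, also without a symbol, had 200.1 FPKM in the combined mutant, 136 in brm-1 and 23.25 in brd1,2,13, against 5.87 in WT.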

How the data were processed

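RNA was sequenced from 12 libraries, 3 per genotype. According to the submitters' processing notes, Cuffdiff 2.1.1, Cufflinks 2.1.1 and TopHat were run on TAIR10. Whether strand was used is not given here. The authors deposited 1 Cuffdiff gene table with 1 FPKM value per genotype. Its columns of the authors' own log2 fold changes, test statistics, p-values and q-values were not used. Gene coordinates follow the table, 1-based. Symbols and promoters came from RefSeq (TAIR10.1), in which 17134 of 17159 measured records of 1 gene were found.

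Differences are log2 of FPKM with a pseudocount of 1, over records with status OK (Python 3.11.15, pandas 2.3.3, numpy 2.4.6, matplotlib 3.10.9). The counting was checked on simulated levels without noise, which covers its arithmetic only and not the error of the values. Named genes had a symbol. They were, among records with 10 FPKM or more in the higher genotype, the 15 furthest above and below WT and the 10 largest gains and losses in FPKM, then the 10 furthest above (below) all 3 other genotypes at any level, and from each of 56 lists up to 5 members of at least 5 FPKM. The 4 mutated genes were always named. SEP3, PI, AP1, AP3, HEI10, HB1, PCO2, SUS4, DIN10, BXL1, NIA2, JAZ3, JAZ8, TIFY10B, JAZ4, JAZ11, AT4, MGD2, SPX1, SQD1, PHO2, PHT1;2, BHLH100, bHLH38, BBX21, XTH17, XTH18, MIR398b, MIR156a, ATH9 and the genes named by locus only were chosen after their values were seen. Members and lists were chosen with earlier results of these data known, and list entries whose symbol belonged to another gene were corrected after the data were seen. For the 337 genes with several records, the most abundant record entered the lists. Alternatives were other pseudocounts, folds, filters and scalings.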

Additional observations from a re-analysis of the deposited data

How the results depend on the processing

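The counts of 1009 higher and 784 lower records depended most on the pseudocount and the fold. With 0.1 FPKM added they were 1569 and 1281, with none added 1640 and 1363, and at 1.5-fold 2412 and 2085. Among records of 1 gene whose locus overlaps no other, 665 were higher and 582 lower, from fewer records. The counts of records in which the combined mutant was at least 2-fold above (24) or below (4) each of the 3 other genotypes had alternatives chosen after seeing the data: 81 and 44 with 0.1 FPKM added, 89 and 70 with none, 144 and 54 at 1.5-fold, and 14 above without overlapping records. A filter at 5 FPKM, all records whatever their status, rescaling to a common total (a shift of 0.03 on the log2 scale) and centring (0.02) moved these counts by less than 1.5 times. No direction of a called value reversed. For the named genes chosen over all records, and not from lists, 363 values under alternatives stayed close and 24 moved. Of those that moved, 12 did so with 0.1 FPKM added and 12 with none, so these single values depend on the pseudocount. Of the list medians, 372 values under alternatives stayed close and 20 moved, among them receptor-like proteins (0.42, but 1.13 at 5 FPKM or more), wall-associated kinases (1.16, but 0.30 over all records and 0.76 without overlaps), CRK (0.97, but 1.44 without overlaps), iron deficiency genes (-0.42, but -1.02 without overlaps) and inositol genes (0.01, but 1.48 without overlaps). The cause was not tested. No paired analysis was possible because the table gives 1 value per genotype, and for the same reason no replicate could be left out. FPKM values keep no read counts, so the depth behind low values is unknown.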
